A study of Mus musculus with 12 samples.

Results

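Loss of Hoxa9 was examined in LSK cells by RNA sequencing of 2 HOXA9_KO libraries and 2 WT libraries. LSK cells are the fraction of mouse bone marrow that lacks lineage markers and carries Sca1 and Kit. The libraries were chosen by their column names, and they are 4 of the 12 libraries of the series. All cells came from mice that had received a primary transplant and were taken 6 weeks after tamoxifen, so the WT cells share the transplant and the time point. The genotype field calls the HOXA9_KO cells a HOXA9 knockdown, whereas their titles say KO. The promoter or Cre line behind the deletion, the donors' age and the number of animals per library are not stated by the labels. Results are described for the 16503 autosomal genes that passed a filter on low counts, and genes on X and Y are left out. A second comparison of Hoxa9 loss was available in dKO, which lacks both β-catenin and Hoxa9, against Bcat_KO, which lacks β-catenin alone. It shares no library with HOXA9_KO against WT. PRMT1_KO against its own control group, WT_PRMT1, is set beside them where a value bears on the Hoxa9 comparison.

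Hoxa9 is a homeobox transcription factor of the Hoxa cluster, expressed in blood stem cells and early progenitors and switched down as they differentiate. It binds DNA together with partners of the Pbx and Meis families, and mice without it are known for fewer and less competitive progenitors, with lymphoid and myeloid lineages affected. The LSK fraction holds long-term stem cells together with multipotent progenitors, which lose self-renewal and gain Flt3 and Cd34 on their surface.

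The 4 libraries held between 17569709 and 24162780 counts. Expression is given as CPM, counts scaled to library size by TMM, and changes are log2 fold changes of HOXA9_KO against WT, with 2 libraries per group. The standard error after ± comes from a fit of all 12 libraries and is not the spread of these 4. A gene is said to have risen or fallen where its Benjamini-Hochberg adjusted p from edgeR's quasi-likelihood test was under 0.05, and each adjusted p below comes from that test. The labels do not say whether both libraries of a group are separate animals, and the p-values may then reflect technical spread only. The groups also differed in sex-linked transcripts: Xist stood at 182 and 163 CPM in WT and at 0 and 0.582 in HOXA9_KO, and Y-linked Ddx3y at 1.88 and 2.87 against 61.4 and 66.2. A sex difference and Hoxa9 loss therefore cannot be told apart in HOXA9_KO against WT. PRMT1_KO against WT_PRMT1 carried the same difference with Hoxa9 intact (Ddx3y 93.5 and 87.1 against 0.792 and 1.80), while in dKO against Bcat_KO all 4 libraries had Ddx3y between 60.6 and 69.8. Xist differed there too, at 11.2 and 21.9 CPM in Bcat_KO and 0.620 and 0.417 in dKO. In that second comparison the Bcat_KO libraries stood apart in another way: the summed level of 1455 olfactory and vomeronasal receptor genes, which are not known as genes of blood cells, was 14.4 and 11.1 CPM there, 84.2 and 77.5 in dKO, 165 and 122 in WT, and 78.4 and 57.7 in HOXA9_KO. The part of this background in the results was not tested.

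Markers of other blood cells were present in every library. The 18 B cell markers summed to 3445 and 6889 CPM in WT and 9127 and 13770 in HOXA9_KO, most of it Ighm (2552 and 5845 against 8787 and 13178 CPM). The 25 neutrophil and monocyte markers summed to 3120 and 1418 CPM against 712 and 2325, the 23 erythroid genes to 2015 and 1109 against 1019 and 966, and the 25 T and NK cell markers to 215 and 225 against 170 and 202. Of the T and NK cell markers Cd3e had no count in either HOXA9_KO library and Cd8b1 none in either WT library. The B cell sum was higher in both HOXA9_KO libraries, the neutrophil sums overlapped between the groups, and the erythroid and T and NK cell sums were lower in both HOXA9_KO libraries; the part of these levels in the results was not tested. Over these 4 lists 1 gene rose (Gata3) and 3 fell (Cd4, Ighd and Sptb), and Cd4 was the one whose call was made again without each library. In bulk samples, fewer cells of a type and less RNA per cell cannot be told apart.

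In HOXA9_KO 727 autosomal genes rose and 376 fell, together 6.68% of those tested (4.41% and 2.28%). Counts below of list members that rose or fell in HOXA9_KO are to be read beside these shares. Those for dKO against Bcat_KO are to be read beside 16.1% higher and 12.1% lower, and those for PRMT1_KO beside 16.7% and 15.9%. The lists were written with earlier results of these data known, so their counts are not independent of these data. The median change over all autosomal genes was -0.005. Called genes were mostly protein coding, 699 of those that rose and 357 of those that fell. The number of calls depended on single libraries: 358 of the 1103 calls, 250 higher and 108 lower, were made again without each of the 4 libraries in turn. Genes below held their call in all 4 of these repeats unless a lost call is given.

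Hoxa9 itself (chromosome 6, 52223100 to 52231089, minus strand, GRCm38) fell 5.79-fold, from 58.7 and 59.9 CPM in WT to 12.2 and 8.36 in HOXA9_KO (log2 change -2.53 ± 0.17, adjusted p = 4.99e-08). Of 8 tested Hoxa genes 2 fell, Hoxa9 and Hoxa5, with a median of -0.54 over the 8, and 3 fell by DESeq2 or when only these 4 libraries were fitted. In 5 of the 8 both HOXA9_KO libraries lay below both WT libraries, as in 25.2% of all autosomal genes, and in 1 of the 8 above them. Hoxa5 went from 14.5 and 12.8 CPM to 7.70 and 7.95 (-0.81 ± 0.22, adjusted p = 0.0387), and that call did not hold when any 1 of the 4 libraries was left out (adjusted p from 0.110 to 0.249). Hoxa10 had 18.9 and 20.7 CPM in WT and 13 and 9.28 in HOXA9_KO (-0.83 ± 0.28, adjusted p = 0.101), and against WT_PRMT1 its change was 0.16. Hoxa7 stood at 23.8 and 21.3 against 27.4 and 29.3 CPM (0.33 ± 0.14, adjusted p = 0.200).

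In the Hoxb cluster 3 genes rose. All 8 tested Hoxb genes had both HOXA9_KO libraries above both WT libraries, where 25.7% of all autosomal genes did, and their median change was 2.90. Hoxb5, Hoxb6 and Hoxb8, homeobox factors encoded in this cluster on chromosome 11, passed the test. Hoxb8 (96281905 to 96285315, plus strand) went from 1.67 and 0.740 CPM to 46.7 and 26.2 (4.92 ± 0.54, adjusted p = 0.00120), Hoxb6 from 1.36 and 0.740 to 10.05 and 8.69 (3.16 ± 0.48, adjusted p = 0.000501), and Hoxb5 from 2.77 and 1.25 to 15.2 and 10.03 (2.65 ± 0.41, adjusted p = 0.000597). Hoxb5 marks long-term stem cells in mouse marrow, and Hoxb8 and Hoxb6 are expressed in early progenitors. Hoxb9 showed 0.418 and 0.833 CPM in WT and 10.5 and 8.15 in HOXA9_KO, just outside the threshold (3.87 ± 1.00, adjusted p = 0.0510). Hoxb4, whose overexpression expands stem cells, had 9.57 and 5.83 against 13.8 and 14.0 CPM (0.86 ± 0.27, adjusted p = 0.0650). Hoxb2 and Hoxb3 stood below 1.3 CPM in WT and between 2.62 and 3.55 in HOXA9_KO and were not called. The count of Hoxb genes called was 3 by edgeR, 6 by DESeq2 and 6 when only these 4 libraries were fitted.

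Of the 8 tested Hox cofactors 3 rose, among them Pbx3 and Meis1. Pbx3 went from 7.58 and 7.03 CPM to 26.9 and 28.0 (1.91 ± 0.21, adjusted p = 2.15e-05) and Meis1 from 92.3 and 88.2 to 144 and 123 (0.56 ± 0.11, adjusted p = 0.00387). These genes encode the proteins with which Hoxa9 binds DNA. Pbx2, a further partner, had 84.8 and 80.1 against 74.0 and 77.5 CPM (-0.12 ± 0.09, adjusted p = 0.503), and Pknox1 48.4 and 55.2 against 48.2 and 39.4 (-0.24 ± 0.13, adjusted p = 0.315). Upstream of the Hox genes, 2 of 19 members of the MLL, menin and Dot1l complexes rose. Mllt3, which ties MLL to transcription elongation, went from 51.6 and 43.6 CPM to 100 and 85.6 (0.97 ± 0.16, adjusted p = 0.00261). Kmt2a, which encodes MLL itself, went from 69.2 and 61.0 to 118 and 97.8 (0.73 ± 0.15, adjusted p = 0.0116), a call lost without WT S2 (0.0903) or HOXA9_KO S4 (0.0764).

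**Figure D1:**
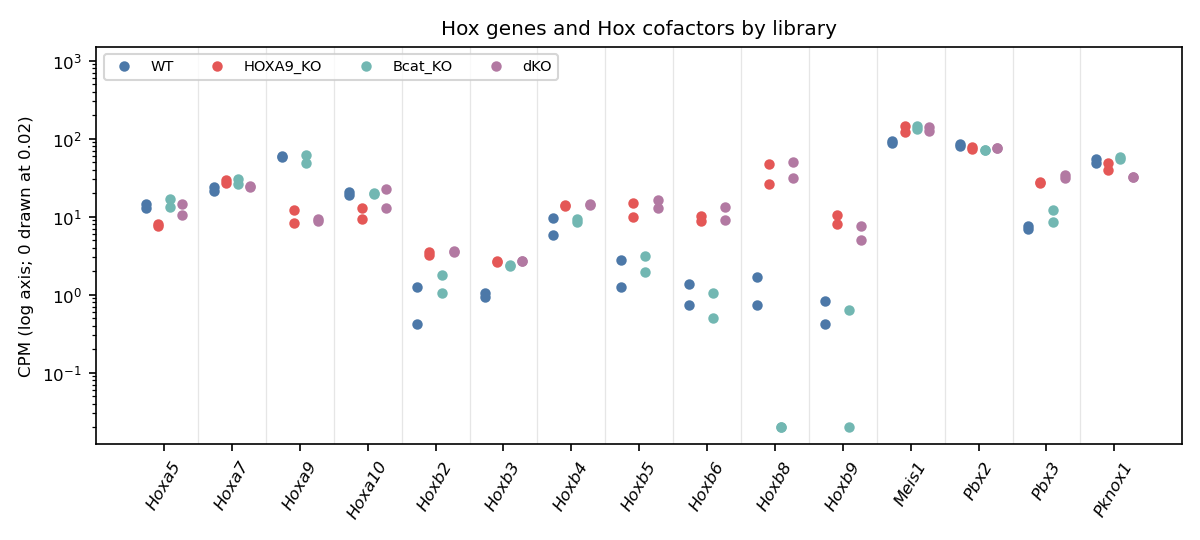
Expression of Hox genes and Hox cofactors in CPM on a log axis (0 drawn at 0.02), with 1 point per library for WT, HOXA9_KO, Bcat_KO and dKO (2 libraries each). Hoxa9 is at 12.2 CPM or less in the HOXA9_KO and dKO libraries and at 49.2 or more in the others, whereas Hoxb5, Hoxb6 and Hoxb8 are higher in both groups that lack Hoxa9.

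Hoxa9 loss without β-catenin gave a second set of values for the same genes. In dKO against Bcat_KO, where 28.2% of autosomal genes were called (16.1% higher and 12.1% lower), Hoxa9 stood at 9.21 and 8.92 CPM against 49.2 and 61.9 (-2.61, adjusted p = 3.28e-08) and 5 of 8 Hoxb genes rose, with a median of 3.18 that includes fitted values for genes at 0. Hoxb5 went from 3.14 and 1.93 CPM to 12.9 and 16.4 (2.53, adjusted p = 0.000193) and Hoxb6 from 0.508 and 1.04 to 9.02 and 13.2 (3.82, adjusted p = 2.63e-05). Hoxb8 had no count in either Bcat_KO library and 31.6 and 50.4 CPM in dKO, 1010-fold higher if Bcat_KO is put at 3 counts in all. This fold is not a lower bound, because 3 counts hold fewer than 3 fragments. Hoxb7 likewise went from 0 to 0.813 and 1.14 CPM, 24.0-fold higher with the same floor of 3 counts. Pbx3 rose by 1.67, whereas Meis1 had -0.07 (adjusted p = 0.670) and its change differed from that in HOXA9_KO (adjusted p of the difference 0.0193). In PRMT1_KO, with Hoxa9 at -0.08 (adjusted p = 0.739), Hoxb5, Hoxb6 and Hoxb8 rose by 2.27, 2.06 and 2.65, and that comparison carries the sex-linked difference too.

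Genes known as Hoxa9 targets from other work did not move in a single direction. Of 18 tested, 3 rose and 5 fell, and their median was -0.11. Flt3, the receptor of multipotent and lymphoid-primed progenitors, went from 537 and 421 CPM in WT to 162 and 167 in HOXA9_KO (-1.54 ± 0.21, adjusted p = 0.00512). Its call was lost without HOXA9_KO S4 (0.0841) or S5 (0.0580) at changes of -1.52 and -1.57. Cd34, a progenitor surface protein, went from 765 and 715 to 422 and 345 CPM (-0.95 ± 0.13, adjusted p = 0.00148). Sox4, a transcription factor of lymphoid progenitors, went from 285 and 266 to 232 and 174 (-0.44 ± 0.12, adjusted p = 0.0419) and lost the call without WT S1 (0.228), WT S2 (0.107) or HOXA9_KO S5 (0.269). Dusp6, a phosphatase that limits ERK signalling, fell by 0.60 ± 0.10 (285 and 276 to 167 and 202 CPM, adjusted p = 0.000987), but against WT_PRMT1 its change was 0.10. Kit, the stem cell factor receptor that defines the gate, rose from 271 and 269 to 461 and 354 CPM (0.59 ± 0.10, adjusted p = 0.00154), and Igf1r, the receptor for insulin-like growth factor, from 63.0 and 51.0 to 92.7 and 99.5 (0.75 ± 0.14, adjusted p = 0.00302).

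Most genes of the long-term stem cell list rose. Of 41 tested, 34 rose and 1 fell, against 4.41% and 2.28% of all autosomal genes, and the median change was 1.24. Its members were chosen with earlier results of these data known, so this count is a description and not independent of the data. Their summed level was 4411 and 4370 CPM in WT and 6914 and 6307 in HOXA9_KO. Tek, the angiopoietin receptor Tie2 of quiescent stem cells, went from 13.1 and 12.6 CPM to 50.6 and 54.7 (2.03 ± 0.15, adjusted p = 1.88e-07). Slamf1, which encodes the surface marker CD150 used to sort stem cells, went from 8.32 and 7.87 to 42.3 and 38.3 (2.32 ± 0.25, adjusted p = 3.22e-05). In both genes the groups lay far apart compared with the spread within them. Cavin2, a coat protein of caveolae, went from 7.11 and 6.76 CPM to 38.1 and 35.7 (2.41 ± 0.20, adjusted p = 1e-06), the junction protein gene Esam from 28.0 and 26.4 to 81.9 and 73.5 (1.51 ± 0.13, adjusted p = 1.91e-06) and Pdzk1ip1 from 39.7 and 41.3 to 101 and 95.3 (1.28 ± 0.12, adjusted p = 3.57e-06). Aldh1a1, a retinaldehyde dehydrogenase, went from 36.9 and 37.9 to 240 and 247 CPM, 6.51-fold (2.7 ± 0.22, adjusted p = 0.000224).

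Further stem cell genes rose with wider spread. Vwf, the von Willebrand factor gene that marks platelet-biased stem cells, had 61.4 and 33.1 CPM in WT and 353 and 236 in HOXA9_KO (2.64 ± 0.37, adjusted p = 0.00989). It lost its call without HOXA9_KO S4 (2.32, adjusted p = 0.0509) and when only these 4 libraries were fitted (0.170). Procr, the protein C receptor EPCR, had 46.9 and 48.8 against 95.2 and 64.4 CPM (0.74 ± 0.20, adjusted p = 0.0487) and lost its call without HOXA9_KO S4 (0.284), WT S1 (0.294) or WT S2 (0.212). Fgd5, a guanine exchange factor restricted to stem cells within the marrow's blood cells, went from 18.2 and 14.9 to 48.5 and 37.1 CPM (1.37 ± 0.28, adjusted p = 0.0127) and was not called without HOXA9_KO S4 (0.0895), WT S1 (0.0731) or WT S2 (0.142). The stem cell regulators Hlf and Mecom were not among the genes that rose: Hlf stood at 234 and 223 against 201 and 149 CPM (-0.38 ± 0.15, adjusted p = 0.183) and Mecom at 49.8 and 45.1 against 80.7 and 51.0 (0.47 ± 0.35, adjusted p = 0.568). Hlf was called lower by DESeq2 (adjusted p = 0.0397), with no filter on low counts (0.00462) and without HOXA9_KO S4 (0.0155), but higher against WT_PRMT1 (0.58, adjusted p = 0.0213). Mecom was called higher against WT_PRMT1 (1.81, adjusted p = 0.0172). Txnip, a thioredoxin inhibitor, was the single list member that fell (436 and 415 to 284 and 334 CPM, -0.46 ± 0.08, adjusted p = 0.00211), and its change against WT_PRMT1 was 0.40. Ly6a, which encodes Sca1 and sets the gate, went from 93.2 and 103 to 135 and 154 CPM (0.56 ± 0.11, adjusted p = 0.00553), with the call lost without WT S1 (0.0965) or HOXA9_KO S5 (0.0558). The number of list members that rose was 34 with all 4 libraries, and 22, 24, 26 and 30 when WT S1, WT S2, HOXA9_KO S4 and HOXA9_KO S5 were left out.

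In dKO against Bcat_KO 35 of the 41 stem cell genes rose and 1 fell, with a median of 1.31 beside 0.06 over all autosomal genes. In PRMT1_KO against WT_PRMT1, where 32.6% of autosomal genes were called (16.7% higher and 15.9% lower), 28 rose and 4 fell, with a median of 0.96. Tek rose by 2.03 in HOXA9_KO, by 1.61 in dKO against Bcat_KO and by 1.47 in PRMT1_KO, and Slamf1 by 2.32, 1.83 and 3.20. Fgd5 rose in both Hoxa9 comparisons (1.37 and 1.68), and in PRMT1_KO its change was -0.72 (adjusted p = 0.0725). The endothelial and stem cell receptor gene Tie1 rose by 1.11 ± 0.14 in HOXA9_KO (113 and 109 to 255 and 226 CPM, adjusted p = 0.000290) and by 1.01 in dKO, and fell by 0.38 in PRMT1_KO (adjusted p = 0.0493). The list was mostly higher in all 3 comparisons, and Tie1 and Fgd5 had the opposite sign in PRMT1_KO.

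**Figure D2:**
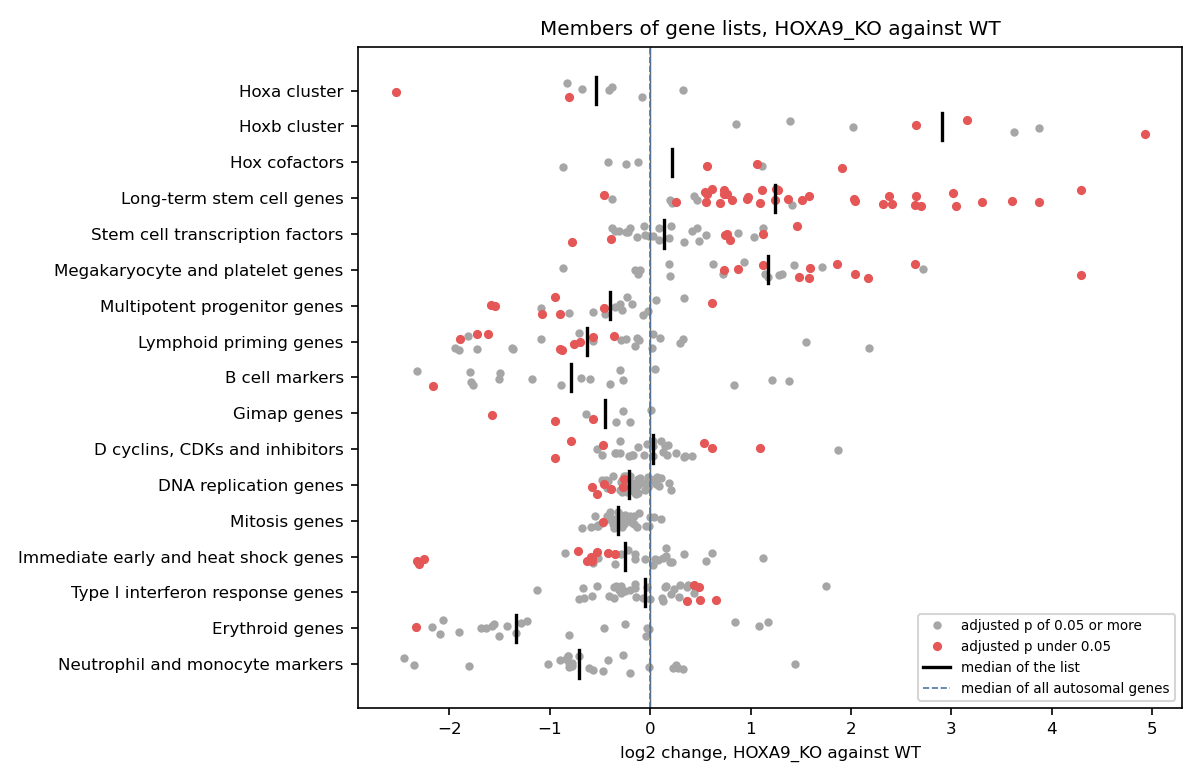
Log2 change of HOXA9_KO against WT (horizontal axis) for each tested member of 17 gene lists, with red points for an adjusted p under 0.05, black bars for list medians and a dashed line for the median of all autosomal genes (-0.005). Long-term stem cell genes (34 of 41 higher) lie mostly to the right of 0, and lymphoid priming genes (9 of 30 lower) mostly to the left.

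Among 30 stem cell transcription factors 5 rose and 2 fell. Gata2, required for stem cell survival, went from 216 and 244 CPM to 385 and 415 (0.80 ± 0.10, adjusted p = 6.29e-05). Tal1, a basic helix-loop-helix factor of stem and erythroid cells, went from 72.9 and 80.0 to 129 and 131 (0.76 ± 0.09, adjusted p = 4.37e-05), and Gfi1b, a repressor of stem cells and megakaryocytes, from 14.4 and 17.1 to 36.2 and 32.8 (1.13 ± 0.17, adjusted p = 0.000527). Prdm16 rose by 1.46 ± 0.23 (12.1 and 10.9 to 33.5 and 29.8 CPM, adjusted p = 0.000637) and Nfix by 0.74 ± 0.10 (65.5 and 59.3 to 114 and 95.1 CPM, adjusted p = 0.000179). Gata2, Tal1, Gfi1b and Prdm16 rose in dKO against Bcat_KO as well (0.81, 0.80, 0.78 and 1.12). Nfix did not (0.05, adjusted p = 0.776), and its 2 changes differed (adjusted p of the difference 0.00695).

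Megakaryocyte and platelet genes leaned the same way as the stem cell genes. Of 27 tested, 11 passed the test and each was higher, with a median of 1.17, and the summed level was 1263 and 1221 CPM in WT and 2352 and 2340 in HOXA9_KO. Itgb3, the β3 integrin of platelets, went from 17.5 and 19.0 CPM to 71.5 and 91.9 (2.17 ± 0.13, adjusted p = 1.75e-08), and Selp, the platelet and endothelial P-selectin gene, from 28.8 and 34.4 to 125 and 135 (2.04 ± 0.14, adjusted p = 8.39e-07). Rab27b, which acts in granule release, went from 10.1 and 11.9 to 35.2 and 45.2 CPM (1.86 ± 0.19, adjusted p = 8.97e-06), and Zfpm1, which encodes the Gata1 partner FOG1, from 166 and 179 to 323 and 310 (0.88 ± 0.08, adjusted p = 2.29e-06). Itga2b, the αIIb integrin gene, had 93.5 and 85.6 against 217 and 320 CPM (1.59 ± 0.22, adjusted p = 0.00515) and lost its call without WT S1 (0.0686) or WT S2 (0.0813). The gene of the mature platelet chemokine Pf4 showed 28.5 and 15.5 CPM in WT and 50.2 and 93.4 in HOXA9_KO (1.71 ± 0.66, adjusted p = 0.235). Gata2, Gfi1b, Vwf, Mmrn1 and Itga2b are genes that stem cells and megakaryocytes share. Without β-catenin, in dKO against Bcat_KO, 21 of the 27 rose and 1 fell, with a median of 1.64, and Selp rose there by 0.43, less than in HOXA9_KO (adjusted p of the difference 0.000271).

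Several multipotent progenitor genes fell. Of 20 genes of multipotent progenitors 6 fell and 1 rose, the median was -0.40, and the summed level was 4558 and 4058 CPM in WT and 2618 and 3103 in HOXA9_KO. Besides Flt3 and Cd34, Cd27, a receptor of the tumour necrosis factor family, went from 133 and 144 CPM to 62.5 and 68.1 (-1.08 ± 0.08, adjusted p = 4.98e-07). Cebpa, the transcription factor that starts the granulocyte and monocyte program, went from 76.6 and 66.9 to 20.3 and 27.5 (-1.58 ± 0.15, adjusted p = 4.63e-06). Mpo, the myeloperoxidase gene of granulocyte precursors, had 413 and 322 against 153 and 267 CPM (-0.81 ± 0.49, adjusted p = 0.463). Without HOXA9_KO S4 the number of these genes that fell was 3 in place of 6. For dKO against Bcat_KO 12 of the 20 fell, among them Cd34 by 1.74, Cd27 by 1.71, Cebpa by 1.40 and Flt3 by 1.26, and in PRMT1_KO the same genes had 0.09, 0.38, 0.28 and 0.14. Cd27 rose in PRMT1_KO (adjusted p = 0.00196), while Cd34, Cebpa and Flt3 were not called there.

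Cytokine receptors gave calls in both directions. Of 31 tested, 5 rose and 2 fell, beside 4.41% and 2.28% of all autosomal genes. In PRMT1_KO, where 16.7% of all autosomal genes rose and 15.9% fell, 23 of the 31 rose and 1 fell. Il11ra1, the interleukin 11 receptor, went from 33.8 and 32.8 CPM to 62.5 and 54.5 (0.81 ± 0.12, adjusted p = 0.000507), and Il3ra, the interleukin 3 receptor α chain, from 33.1 and 32.3 to 48.8 and 61.7 (0.76 ± 0.14, adjusted p = 0.00288). Among 16 myeloid transcription factors 3 passed the test, each lower. Gfi1, a repressor active in stem cells, granulocytes and lymphoid cells, was one, with 24.2 and 22.3 against 13.9 and 13.1 CPM (-0.78 ± 0.18, adjusted p = 0.0122), and it lost its call without WT S1 (0.111), HOXA9_KO S4 (0.0594) or HOXA9_KO S5 (0.0764).

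Some lymphoid priming genes fell as well. Of 30 tested, 9 passed the test and each was lower, the median was -0.63, and by DESeq2 15 were lower and 1 higher. The summed level of the 30 overlapped between the groups (WT 4492 and 4736 CPM, HOXA9_KO 3924 and 4575). Cnn3, a calponin that marks lymphoid-primed progenitors, went from 92.0 and 94.6 CPM to 26.3 and 30.0 (-1.73 ± 0.17, adjusted p = 3.89e-05). Notch1, the receptor that drives T cell commitment, went from 87.0 and 77.6 to 48.7 and 53 (-0.70 ± 0.12, adjusted p = 0.00124), and Lck, a kinase of T cell receptor signalling, from 67.4 and 55.2 to 34.6 and 32.1 (-0.88 ± 0.14, adjusted p = 0.000895). Il7r, the interleukin 7 receptor of lymphoid progenitors, went from 20.7 and 21.7 to 4.70 and 9.07 CPM (-1.61 ± 0.27, adjusted p = 0.00151). Dntt, the terminal transferase that adds bases at antigen receptor joints, had 1381 and 1232 against 353 and 349 CPM (-1.90 ± 0.26, adjusted p = 0.00857), and this call was lost without WT S1 (0.0676), HOXA9_KO S4 (0.0853) or HOXA9_KO S5 (0.0673). The count of genes that fell was 9 with all libraries and 5 without HOXA9_KO S4. Of the 8 Gimap genes, GTPases of lymphocyte survival, 3 passed the test, each lower, including Gimap6 (133 and 127 to 85.7 and 90.5 CPM, -0.56 ± 0.09, adjusted p = 0.000674) and Gimap9 (25.8 and 23.6 to 12.6 and 13 CPM, -0.95 ± 0.18, adjusted p = 0.00293).

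B cell markers were mostly lower, with 1 call. Of the 18 tested 1 fell, Ighd, beside 2.28% of all autosomal genes, and the median was -0.78. Without overlap between the groups 11 were lower and 3 higher, beside 25.2% and 25.7% of all autosomal genes. Igll1 and Vpreb1, which encode the surrogate light chain, stood at 141 and 196 CPM and 115 and 138 CPM in WT, and at 28.2 and 70.1 and 21.2 and 51.5 in HOXA9_KO. Their changes (-1.77 ± 0.75 and -1.80 ± 0.73) did not pass the test (adjusted p = 0.271 and 0.255). For both genes the groups did not overlap. limma-voom with quality weights called 7 of the 18 lower, among them Igll1 and Vpreb1 (adjusted p = 0.00195 and 0.00150), and 1 higher, Ighm (1.48, adjusted p = 0.0262). In dKO against Bcat_KO 9 lymphoid priming genes rose and 9 fell. Cnn3 and Notch1 fell there by 1.30 and 0.73, but Il7r rose from 3.49 and 3.77 to 13.6 and 8.35 CPM (1.59, adjusted p = 0.000537), and its 2 changes differed by 3.20 (adjusted p = 0.000159).

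**Figure D3:**
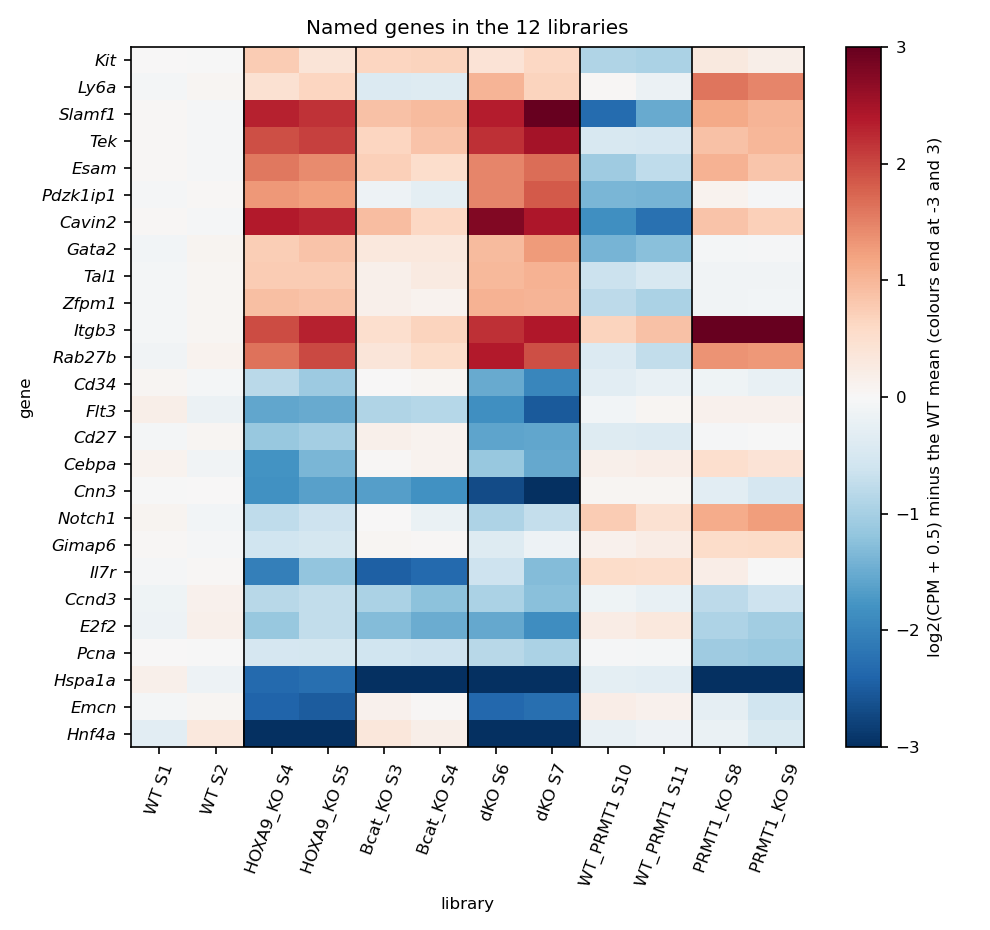
log2(CPM + 0.5) of 26 named genes in all 12 libraries, shown as the difference from the WT mean, with colours that end at -3 and 3 and vertical lines between groups of 2 libraries. Tek, Slamf1 and Cavin2 are higher in HOXA9_KO and dKO than in WT, Cd27 and Cebpa are lower in these 2 groups, and Hnf4a and Emcn are low in the 4 libraries of HOXA9_KO and dKO.

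The series title links Hoxa9 and β-catenin to DNA replication, and replication genes were shifted by a small amount. Of 60 tested, 6 passed the test and each was lower, beside 2.28% of all autosomal genes, and 42 had both HOXA9_KO libraries below both WT libraries, beside 25.2%. The median change was -0.21. Their summed level was 8220 and 8486 CPM in WT and 6945 and 7369 in HOXA9_KO. Pcna, the sliding clamp of the replication fork, went from 680 and 659 to 469 and 461 CPM (-0.53 ± 0.07, adjusted p = 0.000119). Gmnn, which blocks relicensing, went from 73.8 and 71.9 to 47.8 and 49.6 (-0.58 ± 0.12, adjusted p = 0.00686) and lost its call without WT S1 (0.0614) or HOXA9_KO S4 (0.0507). Mcm2, a subunit of the replicative helicase, had 381 and 403 against 322 and 332 CPM (-0.26 ± 0.07, adjusted p = 0.0424), which did not hold when any 1 library was left out (0.103 to 0.422). The count that fell was 6, and 2, 3, 2 and 5 when WT S1, WT S2, HOXA9_KO S4 and HOXA9_KO S5 were left out. In dKO against Bcat_KO 41 of the 60 fell with a median of -0.45, and in PRMT1_KO 49 fell with a median of -0.71.

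Regulators of the cell cycle split, and of 31 tested 3 rose and 3 fell, beside 4.41% and 2.28% of all autosomal genes. Among those that rose were the cyclin gene Ccnd1 (0.62) and Rbl2 (0.53), neither called in all 4 repeats with 1 library left out. The cyclin gene Ccnd3 went from 321 and 378 CPM to 195 and 210 (-0.79 ± 0.12, adjusted p = 0.000728), and E2f2, an activator of S phase genes, from 67.6 and 83.2 to 33.6 and 44.5 (-0.95 ± 0.15, adjusted p = 0.000759). Cdkn1c, the inhibitor p57 of quiescent stem cells, had 6.96 and 7.03 CPM in WT and 14.9 and 15.0 in HOXA9_KO (1.09 ± 0.24, adjusted p = 0.00881), no longer called without WT S1 (0.0955), without WT S2 (0.0763) or without HOXA9_KO S4 (0.0565). Of 39 mitosis genes 1 passed the test, Cdk1, the kinase of mitotic entry (73.4 and 81.4 to 52.4 and 59.2 CPM, -0.47 ± 0.13, adjusted p = 0.0327), and it lost its call without HOXA9_KO S4 (0.247), WT S1 (0.0737) or WT S2 (0.302). The median of the 39 was -0.32, and 27 had both HOXA9_KO libraries below both WT libraries, beside 25.2% of all autosomal genes. The number that fell was 10 when only these 4 libraries were fitted and 10 with no filter on low counts, 5 without HOXA9_KO S5 and 0 without any other of the 4 libraries. Without β-catenin, in dKO against Bcat_KO, 37 of the 39 fell, and the change of Cdk1 there, -1.33, was larger than in HOXA9_KO (adjusted p of the difference 0.00761). Of 41 genes of recombination, Fanconi anaemia repair and checkpoints 1 fell and 1 rose, beside 2.28% and 4.41% of all autosomal genes. The gene that rose was Mdc1, a damage mediator (50.9 and 49.8 to 79.9 and 61.9 CPM, 0.49 ± 0.12, adjusted p = 0.0191), and it lost its call without HOXA9_KO S4 (0.329), WT S1 (0.113) or WT S2 (0.118).

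Several heat shock genes fell in HOXA9_KO. Of 32 immediate early and heat shock genes 11 passed the test, each lower, with a median of -0.25. Both HOXA9_KO libraries lay below both WT libraries in 15 of the 32, beside 25.2% of all autosomal genes. They lay above in 5, none of them called, beside 25.7%. The summed level of the 32 overlapped (WT 33712 and 31559 CPM, HOXA9_KO 28626 and 31589). Hspa8, the constitutive Hsp70 chaperone, went from 4527 and 4821 CPM to 3050 and 3001 (-0.63 ± 0.06, adjusted p = 1.91e-06), and Hsp90aa1, which encodes inducible Hsp90, from 2045 and 2037 to 1550 and 1277 (-0.53 ± 0.08, adjusted p = 0.000290). The inducible Hsp70 genes Hspa1a and Hspa1b, near-identical neighbours between which reads may be split uncertainly, went from 350 and 284 to 61.9 and 65.1 CPM (-2.32 ± 0.21, adjusted p = 0.000352) and from 927 and 773 to 169 and 175 (-2.31 ± 0.23, adjusted p = 0.00126). They were lower still in Bcat_KO (29.1 and 21.6 CPM of Hspa1a) and dKO (11 and 7.59). Of 26 genes of the p53 pathway 4 passed the test, each lower, beside 2.28% of all autosomal genes. Among them were the repair factor gene Xpc (136 and 128 to 97.9 and 93.3 CPM, -0.46 ± 0.08, adjusted p = 0.00217) and the kinase gene Plk2 (155 and 119 to 83.3 and 75.7 CPM, -0.79 ± 0.15, adjusted p = 0.00626). Against WT_PRMT1 the call of Xpc was lost (-0.24, adjusted p = 0.0562).

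Chromatin, signalling and metabolic lists held few calls. Of 27 genes of DNA methylation and Polycomb, Ezh1, the methyltransferase of resting cells, went from 36.3 and 40.4 to 68.6 and 60.9 CPM (0.76 ± 0.12, adjusted p = 0.000943), and Uhrf1, which maintains DNA methylation at replication, from 200 and 202 to 116 and 138 (-0.66 ± 0.11, adjusted p = 0.00141). Both moved the same way in dKO against Bcat_KO (1.13 and -1.28). Prmt1, the arginine methyltransferase named in the series title, was the 1 of 9 family members called (322 and 334 to 272 and 272 CPM, -0.27 ± 0.07, adjusted p = 0.0290), which no repeat with 1 library left out called (0.114 to 0.314). Ctnnb1, which encodes β-catenin, had 315 and 342 against 363 and 349 CPM (0.12 ± 0.07, adjusted p = 0.428). Of 36 Wnt genes 3 rose and 1 fell, near the 4.41% and 2.28% of all autosomal genes, and between 0 and 2 rose when 1 library was left out. The Wnt receptor gene Fzd8 was among those that rose, with 1.99 and 2.22 against 22.7 and 18.7 CPM (3.29 ± 0.46, adjusted p = 0.00133; 0.0549 without WT S1). In glycolysis Hk1, a hexokinase, rose by 0.54 ± 0.07 (adjusted p = 0.000158) and Slc16a1, a lactate transporter, fell by 0.72 ± 0.11 (adjusted p = 0.000537), the latter not called against WT_PRMT1 (-0.25, adjusted p = 0.146).

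Immune and mast cell lists held some genes that rose. Of 40 type I interferon response genes 5 passed the test, each higher, although the list's median was -0.05. The secreted glycoprotein gene Lgals3bp went from 203 and 203 CPM to 292 and 283 (0.50 ± 0.08, adjusted p = 0.000741), and Ifih1, a sensor of viral RNA, from 31.8 and 41.6 to 59.4 and 56.8 (0.66 ± 0.13, adjusted p = 0.00478; 0.135 without WT S1). For dKO against Bcat_KO 24 of the 40 rose, with a median of 0.53. Of 14 mast cell and basophil markers 4 passed the test, each higher, including Kit and Gata2, and Slc18a2, the vesicular monoamine transporter, went from 50.6 and 49.7 to 115 and 90.7 CPM (1.04 ± 0.16, adjusted p = 0.00156). Their summed level was 600 and 595 CPM in WT and 999 and 912 in HOXA9_KO, most of it Kit and Gata2. Of the markers more restricted to these cells Fcer1a was called higher, with 24 and 20 counts in WT and 114 and 345 in HOXA9_KO (3.24). Its call was lost without WT S1 (3.47) or WT S2 (3.05). Other such markers went both ways without a call. Tpsb2 and Mcpt4 had no count in either WT library and 52 and 6, and 16 and 0 counts, in HOXA9_KO. Ms4a2 had 94 and 40 counts in WT and 22 and 30 in HOXA9_KO, Prss34 260 and 50 against 4 and 54, Mcpt8 252 and 67 against 20 and 133, and Hdc 170 and 88 against 38 and 100. The part of such cells in these values was not tested. Of 38 ribosome biogenesis genes 2 passed the test, both lower, beside 2.28% of all autosomal genes, with a median of -0.14. In dKO against Bcat_KO 28 of the 38 fell, beside 12.1% of all autosomal genes.

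Adhesion and homing genes gave 8 that rose and 4 that fell of 32. Itga6, the laminin-binding α6 integrin, went from 66.9 and 61.7 CPM to 178 and 174 (1.45 ± 0.13, adjusted p = 2.96e-06), and Jam2, a junctional adhesion molecule, from 2.56 and 1.43 to 20.2 and 22.5 (3.42 ± 0.38, adjusted p = 7.68e-05). Cxcr4, the receptor that holds stem cells in the marrow, had 154 and 125 against 80.5 and 94.6 CPM (-0.67 ± 0.14, adjusted p = 0.00942) and lost its call without WT S1 (0.0954) or HOXA9_KO S4 (0.0879). Cxcr4 rose by 0.45 in dKO against Bcat_KO (adjusted p = 0.0279), and its 2 changes differed (adjusted p of the difference 0.00446). Of 22 endothelial and stromal markers 3 rose and 3 fell, beside 4.41% and 2.28% of all autosomal genes. Emcn, which encodes the sialomucin endomucin of endothelium and some stem cells, fell 6.28-fold from 17.1 and 18.7 to 2.95 and 2.75 CPM (-2.65 ± 0.22, adjusted p = 7.76e-07).

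The largest falls included genes with no set place among blood stem cell genes. Hnf4a, a nuclear receptor known from liver and gut (chromosome 2, 163506808 to 163572910, plus strand), had 17.8 and 27.8 CPM in WT and 1.31 and 0.582 in HOXA9_KO, 24.6-fold lower (-4.62 ± 0.37, adjusted p = 2.35e-06). In dKO it stood at 0.774 and 0.38 CPM against 28.5 and 25.2 in Bcat_KO (-5.53, adjusted p = 3.83e-07), and in PRMT1_KO its change was -0.15 (adjusted p = 0.758). Emcn followed the same order, with 3.10 and 3.30 CPM in dKO and 19.5 and 18.4 in Bcat_KO (-2.56), and fell by 0.61 in PRMT1_KO (adjusted p = 0.0247). In both genes all 4 libraries of HOXA9_KO and dKO lay below all 4 libraries of WT and Bcat_KO. Ddx4, a helicase of germ cells, went from 20.2 and 18.2 to 1.31 and 0.416 CPM (-4.51 ± 0.42, adjusted p = 3.47e-06), but Bcat_KO, with Hoxa9 intact, had 2.92 and 2.50. Wfdc17, an antiprotease gene of myeloid cells, went from 19.6 and 16.1 to 0.983 and 1.91 (-3.59 ± 0.29, adjusted p = 2.38e-06). Its relative Wfdc18 went from 4.81 and 3.75 CPM to no count, 60.4-fold lower with HOXA9_KO put at the same floor of 3 counts. Vldlr, a lipoprotein receptor, had 22 and 26.7 against 6.01 and 2.16 CPM (-2.59 ± 0.36, adjusted p = 0.00175), and was not called against WT_PRMT1 (-0.93, adjusted p = 0.114) or with only these 4 libraries fitted (0.0973). The chemokine gene Ccl3 fell by 2.01 ± 0.22 (77.0 and 62.7 to 14.9 and 19.7 CPM, adjusted p = 0.000946) and the integrin gene Itgb5 by 1.96 ± 0.21 (21.1 and 17.6 to 4.86 and 5.08, adjusted p = 1.72e-05).

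Among called protein-coding genes with a mean of at least 2 CPM and no overlap between groups, the largest rises came from genes at low levels in WT. Outside that limit 7 immunoglobulin V gene segments rose, some with larger fitted changes. None of these 7 held its call in all 4 repeats with 1 library left out. Mmrn1, which encodes multimerin of platelets and stem cells, had 7.53 and 2.96 CPM in WT and 111 and 93.8 in HOXA9_KO (4.30 ± 0.57, adjusted p = 0.00786; 0.114 with only these 4 libraries fitted). Clca3a1, a chloride channel accessory gene whose close paralogs make its counts uncertain, went from 5.33 and 3.47 to 61.7 and 78.5 CPM (4.0 ± 0.19, adjusted p = 7.06e-10). Evc and Evc2, head-to-head neighbours on chromosome 5 whose proteins act together in Hedgehog signalling at the cilium, went from 1.73 and 1.16 to 23.5 and 21.1 (3.95 ± 0.37, adjusted p = 3.47e-06) and from 1.99 and 1.11 to 23.7 and 12.4 CPM (3.54 ± 0.49, adjusted p = 0.000963). Neo1, which encodes the receptor neogenin of quiescent stem cells, went from 4.24 and 1.57 to 38.6 and 31.7 (3.61 ± 0.51, adjusted p = 0.00575; 0.0561 with only these 4 libraries), and Wwtr1, the Hippo pathway coactivator TAZ, from 0.314 and 1.20 to 10.2 and 10.7 (3.76 ± 0.62, adjusted p = 0.00254). Matn4, a matrix protein gene that restrains stem cell proliferation, had 0.889 and 0.278 CPM against 47.8 and 34.1 (6.15 ± 1.19, adjusted p = 0.0337), with no call in any repeat that left out 1 library (0.0767 to 0.225). In PRMT1_KO the changes of Evc and Evc2 were 0.46 (adjusted p = 0.424) and 0.20 (0.814), and those of Fzd8 and the protease gene Fap, which rose by 4.50 ± 0.80 in HOXA9_KO (adjusted p = 0.00386), were -0.29 (0.680) and -2.04 (0.0848).

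Across all genes, the comparison without β-catenin shared most of the calls that rose. In dKO against Bcat_KO 16.1% of all autosomal genes rose and 12.1% fell. Of the 727 genes that rose in HOXA9_KO, 494 (68.0%) also rose in dKO against Bcat_KO, or 18.6% of the 2659 that rose there, and 11 fell. Of the 376 that fell, 201 (53.5%) fell there too, or 10.1% of 1998, and 23 rose. In PRMT1_KO, where 16.7% of all autosomal genes rose and 15.9% fell, 419 (57.6%) of the first set rose and 55 (7.6%) fell, and 161 (42.8%) of the second fell and 74 (19.7%) rose. Of the genes called in the same direction in both Hoxa9 comparisons, 166 (33.6%) of those higher and 65 (32.3%) of those lower had no call in PRMT1_KO, where 32.6% of all autosomal genes were called and the rest were not. A test of the difference between the 2 Hoxa9 effects called 1398 autosomal genes (8.47%), 648 with a higher (3.93%) and 750 with a lower (4.54%) change in HOXA9_KO against WT.

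**Figure D4:**
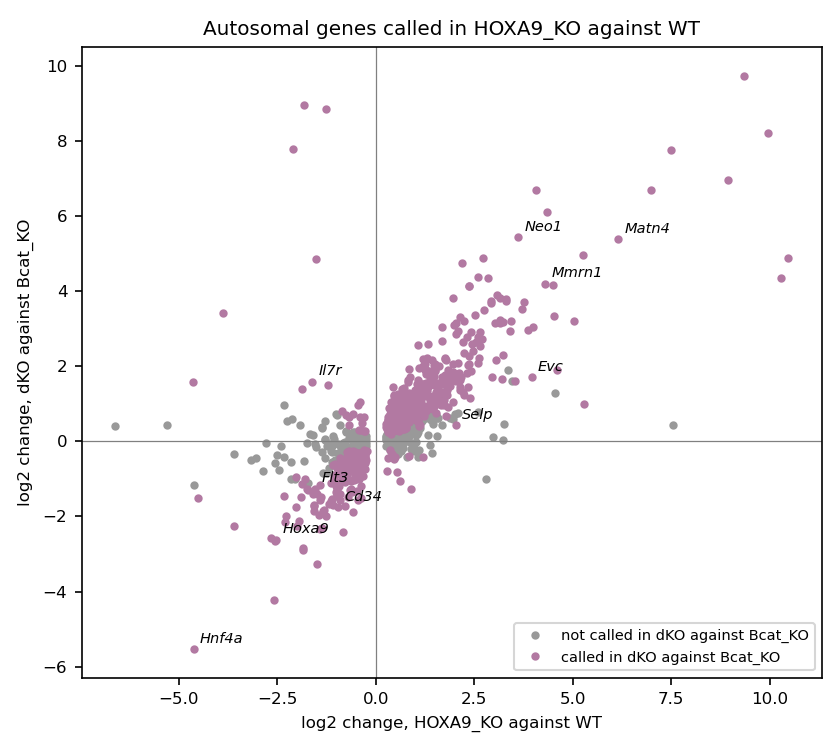
Log2 change of HOXA9_KO against WT (horizontal axis) and of dKO against Bcat_KO (vertical axis) for the 1089 called autosomal genes with counts in all 4 groups, leaving out 14 with a group at 0. Purple points were also called in dKO against Bcat_KO, most of them with the same sign, and Il7r is among the exceptions (-1.61 and 1.59).

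Promoters of the called genes were searched for motifs of Hox proteins, their partners and GATA factors. Windows of 250 bases before to 50 after the start were taken from RefSeq (GRCm38.p6) and matched by symbol to 11330 of the 16503 genes. The motif TGATNNAT, a form of the site bound by Pbx and Hox proteins together, was searched on both strands, and it was 1 of 8 motifs tried and was picked after the shares were seen. It was found in 593 of 11330 promoters (5.23%), in 27 of 535 (5.05%) of those of genes that rose, and in 26 of 282 (9.22%) of those of genes that fell. For genes called in both comparisons the shares were 19 of 363 (5.23%) for those higher and 16 of 152 (10.5%) for those lower. Over all 32851 windows of the table, tested or not, 8.85% held it. The other motifs were TGATTTAT, every match of which is also one of TGATNNAT, then TGATTTAC, the shorter Hox motif TTTATGG with its variant TTTACGA, the Meis motif TGACAG, and for GATA factors the motif GATAAG beside the overlapping motif AGATAA. The motif GATAAG was in 6.54% of all, 9.53% of those that rose and 5.67% of those that fell, and TGATTTAT in 0.459%, 0.748% and 1.42%. A match is a description of the letters and not a bound site.

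Of the 20 genes named for the largest changes in both Hoxa9 comparisons, 16 had a promoter entry and 5 of them held TGATNNAT. These 5 promoters are printed 5′ to 3′ on the gene's strand, with the match in capitals. Hoxb8 and Mmrn1 rose, and Wfdc17, Ccl3 and Emp1 fell. Emp1, a membrane protein gene, had 169 and 177 CPM in WT and 29.1 and 29.4 in HOXA9_KO (-2.56 ± 0.43, adjusted p = 0.0207), again with no call once any 1 library was left out (0.104 to 0.145).
Hoxb8, chr11:96281655-96281954, plus strand: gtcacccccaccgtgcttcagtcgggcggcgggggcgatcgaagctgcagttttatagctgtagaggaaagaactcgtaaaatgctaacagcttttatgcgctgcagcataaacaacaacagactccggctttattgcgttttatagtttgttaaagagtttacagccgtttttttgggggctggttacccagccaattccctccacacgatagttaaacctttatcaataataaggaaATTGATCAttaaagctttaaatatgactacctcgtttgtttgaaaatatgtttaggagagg
Mmrn1, chr6:60944067-60944366, plus strand: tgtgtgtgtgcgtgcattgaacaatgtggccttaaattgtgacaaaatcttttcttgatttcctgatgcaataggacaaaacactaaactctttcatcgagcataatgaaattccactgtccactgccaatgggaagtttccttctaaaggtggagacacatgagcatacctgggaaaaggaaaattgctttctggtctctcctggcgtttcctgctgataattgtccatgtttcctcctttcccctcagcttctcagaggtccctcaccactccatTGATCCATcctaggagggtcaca
Wfdc17, chr11:83703806-83704105, plus strand: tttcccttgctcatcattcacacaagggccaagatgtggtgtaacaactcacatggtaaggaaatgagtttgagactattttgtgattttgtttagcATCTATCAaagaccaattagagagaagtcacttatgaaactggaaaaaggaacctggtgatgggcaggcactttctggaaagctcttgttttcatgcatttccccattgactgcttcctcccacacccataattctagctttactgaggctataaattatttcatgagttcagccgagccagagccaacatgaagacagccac
Ccl3, chr11:83649329-83649628, minus strand: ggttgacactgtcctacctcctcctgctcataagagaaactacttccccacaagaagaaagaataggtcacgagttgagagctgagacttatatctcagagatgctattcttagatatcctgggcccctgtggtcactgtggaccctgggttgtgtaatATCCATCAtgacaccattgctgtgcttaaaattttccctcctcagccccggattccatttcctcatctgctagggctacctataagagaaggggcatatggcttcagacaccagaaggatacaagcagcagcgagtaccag
Emp1, chr6:135362681-135362980, plus strand: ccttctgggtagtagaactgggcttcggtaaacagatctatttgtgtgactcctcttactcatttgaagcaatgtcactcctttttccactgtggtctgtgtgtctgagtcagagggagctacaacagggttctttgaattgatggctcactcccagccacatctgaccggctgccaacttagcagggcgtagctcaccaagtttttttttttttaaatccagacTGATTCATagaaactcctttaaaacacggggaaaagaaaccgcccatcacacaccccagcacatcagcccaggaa
Each window held 1 match. In Hoxb8, Wfdc17 and Ccl3 it lies on the strand opposite to the one printed, and in Mmrn1 and Emp1 on the printed strand.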

How the data were processed

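Per the labels, RNA came from the RNeasy Plus Micro kit and libraries from the Ultra II Directional kit of New England BioLabs. The submitters' processing notes name Trim Galore 0.6.6 (a read trimmer), STAR 2.7.6a (an aligner), featureCounts (a counter of reads per gene) and the build GRCm38/mm10. The deposited values are the authors' raw counts for 55471 genes in 12 libraries. Annotation release and strand setting: not given in the sources used here. Counts were mostly even (67.1 to 75.9% of nonzero values), so both mates of a pair appear to have been counted, and a floor of 3 counts holds fewer than 3 fragments and covers counting error only. Chromosomes came from GENCODE M21 (55230 genes matched by identifier, and the rest held 0.0044% of counts). The columns carry S tags and name groups, not replicates, and control columns were taken as WT.

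edgeR 4.0.16 (R 4.3.3) was used with TMM scaling and filterByExpr at a minimum count of 10, leaving 17063 genes. All 12 libraries entered 1 quasi-likelihood fit of group means with 6 residual degrees of freedom, and p-values were adjusted by Benjamini-Hochberg over the 17063 genes, with calls at 0.05. The comparisons were HOXA9_KO against WT, dKO against Bcat_KO, the difference between these 2 changes, and PRMT1_KO against WT_PRMT1. The SE of a change is its size over the square root of its F value. The robust form of the fit is used. It was chosen after the non-robust form had been run on these data, because its counts matched those of an earlier analysis that does not state the form. The non-robust form gave fewer calls (594 genes higher and 280 lower in HOXA9_KO, against 727 and 376). Alternatives used DESeq2 1.42.0 and limma 3.58.1 (voom). The steps were tested on simulated data with known changes. For HOXA9_KO against WT 49% of log2 changes of size 1 and 71.1% of those of size 2 were called. These shares were 40% and 73.5% for dKO against Bcat_KO, and 16.7% and 53.3% for the difference. A gene without a call may therefore have changed. Figures were drawn with Python 3.11.15, pandas 2.3.3 and matplotlib 3.10.9.

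The members and 38 gene lists were chosen with earlier results of these data known. Genes were named by a rule: protein-coding called genes with a mean of at least 2 CPM and no overlap between groups, taking the 12 largest changes per direction, the 10 per direction called alike in both Hoxa9 comparisons, up to 4 members per list by p, all tested Hox genes and cofactors, and 5 per direction for the difference. Not every gene that met the rule is printed, and some results are not reported here. Vwf, Aldh1a1, Txnip, Hlf, Procr, Ly6a, Pf4, Mpo, Vpreb1, Igll1, Ighm, Jam2, Itga2b, Cxcr4, Dntt, Sox4, Mcm2, Mecom, Fgd5, Prdm16, Tpsb2, Mcpt4, Ms4a2, Prss34, Mcpt8 and Hdc lie outside it and were chosen after their values were seen.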

Additional observations from a re-analysis of the deposited data

Results flagged for a closer look

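The 2 Hoxa9 effects, HOXA9_KO against WT and dKO against Bcat_KO, were set against each other by a term for their difference in the edgeR fit, and 648 autosomal genes had a higher and 750 a lower change in HOXA9_KO. Of the 141 genes for which values were collected, 43 passed that test, 19 of them with opposite signs of the fitted changes. Of these only Txnip, Il7r and Cxcr4 were called in both comparisons. The others were not called in both, and the sign of a change without a call is not settled. Adjusted p-values in this section are those of the difference, except where a left-out library is named. The Bcat_KO libraries stand apart from the other 10 in their low receptor background, and the part of that in these differences was not tested.

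Among the genes with opposite signs, Txnip fell by 0.46 in HOXA9_KO and rose by 0.97 in dKO (adjusted p = 1.86e-06), and Il7r had -1.61 and 1.59 (adjusted p = 0.000159). The gate gene Kit (0.59 and -0.14, adjusted p = 0.00578), Meis1 (0.56 and -0.07, adjusted p = 0.0193) and Mdc1 (0.49 and -0.27, adjusted p = 0.0124) had the higher change in HOXA9_KO. Dusp6 (-0.60 and 0.18, adjusted p = 0.00297), Cxcr4 (-0.67 and 0.45, adjusted p = 0.00446), and the p53 pathway genes Gadd45a (-0.90 and 0.44, adjusted p = 0.00586) and Btg2 (-0.58 and 0.12, adjusted p = 0.0160) had the lower change there. Ctnnb1 had 0.12 and -0.23 (adjusted p = 0.0462). The glutathione degradation gene Chac1 (2.81 and -0.99, adjusted p = 0.0332), the phosphatase gene Ptprf (1.00 and -2.13, adjusted p = 0.0235), Rtn2 (0.25 and -2.74, adjusted p = 0.00684) and Gm9844 (0.44 and -3.56, adjusted p = 0.00660) complete this group with 5 genes that had no count in either Bcat_KO library. These are the granule protein gene Ltf (adjusted p = 0.0468), Mmp9 (0.0364), Krt83 (0.000451), Cntn1 (0.000260) and Trim10 (0.000110), at 209 and 52.1, 22.3 and 8.42, 0.523 and 0.833, 1.15 and 2.87, and 5.96 and 3.42 CPM in WT. Fitted changes against a group without counts depend on the prior count and are not given.

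With the same sign in both, the change was larger in HOXA9_KO for Nfix (adjusted p = 0.00695), Selp (0.000271), Lck (0.0339), Ccnd3 (0.0118), Hk1 (0.0489), Itga6 (0.0454), Postn (0.0469), Ddx4 (0.00417), Wfdc18 (0.0175), Slc16a11 (0.0343), Zg16 (0.0188), Clca3a1 (0.0216), Evc (0.00871) and Cd4 (0.0206). It was larger in dKO against Bcat_KO for Cd34 (adjusted p = 0.0282), Cd27 (0.00445), Pdzk1ip1 (0.0344), Ly6a (0.0136), Uhrf1 (0.0255), Cdk1 (0.00761), Gbp2 (0.00169), Sox4 (0.00159), Hoxb8 (0.0117) and Gm10282 (4.1e-07). Hoxb8 had no count in Bcat_KO and Wfdc18 none in HOXA9_KO, so their order rests on a group at 0. Gm10282 stood at 60.2 and 76.9 CPM in Bcat_KO and at 4.92 or less in the WT, HOXA9_KO and dKO libraries. Of the genes named in this section alone, some lost their call in HOXA9_KO against WT when 1 library was left out: Gadd45a (adjusted p = 0.115 without WT S1 and 0.0951 without HOXA9_KO S4), Btg2 (0.0585 without WT S1), Chac1 (0.278 without WT S2, 0.111 without HOXA9_KO S4 and 0.104 without HOXA9_KO S5), Postn (0.0549 without HOXA9_KO S5) and Gbp2 (0.343 without WT S1 and 0.347 without HOXA9_KO S4).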

How the results depend on the processing

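No paired analysis was possible because the columns carry S tags that do not give replicate numbers. The HOXA9_KO counts of 727 higher and 376 lower became 1564 and 1260 with WT_PRMT1 as the control, 678 lower with DESeq2, and from 342 to 543 higher and from 158 to 371 lower without 1 library. For dKO against Bcat_KO (2659 higher, 1998 lower), fitting only the groups compared gave 1525 higher, library-size scaling turned the split to 2202 higher and 2409 lower, and leaving out 1 library from 1810 to 2299 higher and from 1269 to 1665 lower. For the difference (648 higher, 750 lower), voom gave 400 and 322, DESeq2 1236 lower and fitting only the groups compared 402 lower. Leaving out 1 library gave from 263 to 613 higher and from 388 to 785 lower, and library-size scaling moved the split to 858 higher and 609 lower. Of the 1103 calls, DESeq2 kept 99.6%, no filter 95.0%, RLE size factors 94.4%, library-size scaling 92.3%, voom 91.6%, a minimum mean of 5 CPM 91.4%, the groups compared alone 84.6%, the non-robust fit 76.1% and WT_PRMT1 as control 73.2%, which called 17 the other way. Without WT S1 43.5% were kept, without WT S2 50.2%, without HOXA9_KO S4 52.4% and without HOXA9_KO S5 65.5%. With WT_PRMT1 as control the log2 change turned sign for Hoxa10 (0.16), Pbx4 (-0.88), Pknox1 (0.05), Dusp6 (0.10), Txnip (0.40), Hlf (0.58), Gm9844 (-0.58), Ptprf (-2.90), Rtn2 (-0.13), Krt83 (1.54) and Cntn1 (1.07). It also turned when 1 library was left out for Ltf (from -3.88 to 0.31), Krt83 (from -2.59 to 0.14) and Cntn1 (from -1.42 to 0.18). The cause of these changes was not tested.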
